A study of Arabidopsis thaliana with 4 samples.

Results

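miR159 and miR319 are related plant microRNAs (miRNAs, RNAs of about the length of a short primer that guide cleavage or repression of matching mRNAs). Their probes on the arrays of this series are described here. The probes were chosen by name: ath-miR159a, ath-miR159b, ath-miR159c, ath-miR319a and ath-miR319c, 5 of 213 miRNA probes, each spotted 12 times per array. miR159 targets the GAMYB-like transcription factors MYB33 (AT5G06100), MYB65 (AT3G11440) and MYB101 (AT2G32460), and in the shoot of Arabidopsis it keeps MYB33 and MYB65 silent. miR319, first known from the jaw-D mutant with its crinkled leaves, targets TCP2 (AT4G18390), TCP3 (AT1G53230), TCP4 (AT3G15030), TCP10 (AT2G31070) and TCP24 (AT1G30210), factors that end cell division in the leaf blade and promote jasmonate synthesis. Some MYB mRNAs can be cleaved by miR319 too, whereas miR159 does not act on the TCP mRNAs.

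RNA came from seedlings of Arabidopsis thaliana, and each group was represented by 1 array, so no value has a replicate check and no p-value is given. WT_control was wild type without added salt (0 mM NaCl in Murashige and Skoog medium), WT_salt was wild type with 100 mM NaCl, and ABR17_control and ABR17_salt were seedlings expressing the cDNA of ABR17, a pea gene of the PR10 family that responds to abscisic acid, at 0 and 100 mM NaCl. Salt was present from germination for 2 weeks, although the growth text also gives 7 days. The sources used here name neither the promoter of the transgene nor the number of lines. The mRNAs of ABR17 and of the MYB and TCP targets were not measured, and no probe marks a tissue. In RNA of seedlings, fewer cells that make a miRNA and less of it per cell cannot be told apart.

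The target sequences are printed because all 5 probes differ from each other by 1 to 3 bases, and how far a probe reads its relatives was not tested. They are those of the array files, 5′ to 3′, with the seed (bases 2 to 8) in capitals.
miR159a: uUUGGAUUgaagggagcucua
miR159b: uUUGGAUUgaagggagcucuu
miR159c: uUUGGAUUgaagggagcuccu
miR319a: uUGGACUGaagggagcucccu
miR319c: uUGGACUGaagggagcuccuu
The 3 miR159 sequences shared the seed UUGGAUU and both miR319 sequences shared the seed UGGACUG. The seeds look unlike because the families are shifted by 1 base: base 2 of miR159 aligns with base 1 of miR319.

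With that shift, a run of 12 bases is common to all 5, shown here in capitals for the closest pair across the families.
miR159c: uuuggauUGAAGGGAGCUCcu
miR319c: uuggacUGAAGGGAGCUCcuu
Counted from 1 at the 5′ end of miR159c, these differed at 1 of 20 aligned bases, U7C, which is base 6 of miR319c. miR159a differed from miR159b by A21U at the 3′ end and from miR159c by U20C and A21U. miR319a differed from miR319c by C20U. From miR159a, miR319c differed at 3 of 20 aligned bases (U7C, U20C and A21U, counted in miR159a), and miR319a differed at 3 as well (U7C, U20C and A21C). Outside the families the nearest probes had 8 or 9 mismatches. RefSeq (assembly TAIR10.1) pairs each of the 5 names with a locus, AT1G73687, AT1G18075 and AT2G46255 for MIR159a, MIR159b and MIR159c, and AT4G23713 and AT2G40805 for MIR319a and MIR319c. It lists a further locus, MIR319b (AT5G41663), for which no probe of that name was present.

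All 5 probes were detected on all 4 arrays, as were 30 of the 213 miRNAs. Detection required 50% or more of the 12 spots to exceed the mean of the blank spots by 3 of their SD, which set a threshold of 298 on WT_control, 101 on WT_salt, 151 on ABR17_control, then 98.3 on ABR17_salt. The 1120 blank spots averaged 231 ± 22.2 (SD) on WT_control, 84.8 ± 5.52 on WT_salt, 111 ± 13.2 on ABR17_control, then 86.5 ± 3.92 on ABR17_salt. WT_control thus stood apart, and it enters every comparison with untreated wild type. Values after ± are SD of repeat spots unless SE is written. They cover error within 1 hybridised array and say nothing of the spread between seedlings.

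The miR159 probes read high on every array. Before any scaling, the spots of miR159a averaged 1413 ± 126 on WT_control, 875 ± 104 on WT_salt, 1131 ± 164.9 on ABR17_control, then 1078 ± 100.1 on ABR17_salt. For miR159b, the readings were 1408 ± 142, 859 ± 107, 1217 ± 49.4 and 1085 ± 100.1 in the same order. Both were lowest on WT_salt, and their spots overlapped between ABR17_control and ABR17_salt. The miR159c probe gave 1064 ± 81.2 on WT_control, 526 ± 56.6 on WT_salt, 651 ± 76.9 on ABR17_control, then 724 ± 55.5 on ABR17_salt. By mean log2 intensity, the rank that quantile normalisation uses, miR159a held a place between 6 and 8 of 213 on each array, miR159b between 4 and 8, and miR159c 12 or 13.

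The miR319 probes were much brighter on WT_control than elsewhere. The miR319c probe averaged 930 ± 103 on WT_control, 184 ± 16.1 on WT_salt, 236 ± 20.4 on ABR17_control, then 399 ± 35.7 on ABR17_salt. For miR319a, the readings were 582 ± 60.9, 124 ± 6.56, 170 ± 15.9 and 174 ± 13.4 in the same order. miR319c was brightest on WT_control, next on ABR17_salt, with the spots of each array clear of the rest, while its spots on WT_salt and ABR17_control overlapped. On WT_salt miR319a stood at 1.22 times the detection threshold and on ABR17_control at 1.13 times, with 11 of 12 spots above it there, so its sizes on these arrays are those of a dim probe. In rank, miR319c held place 16 on WT_control and on ABR17_salt, 22 on WT_salt and 24 on ABR17_control, and miR319a held 27, 32, 28 and 28 in the order of the groups above.

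**Figure D1:**
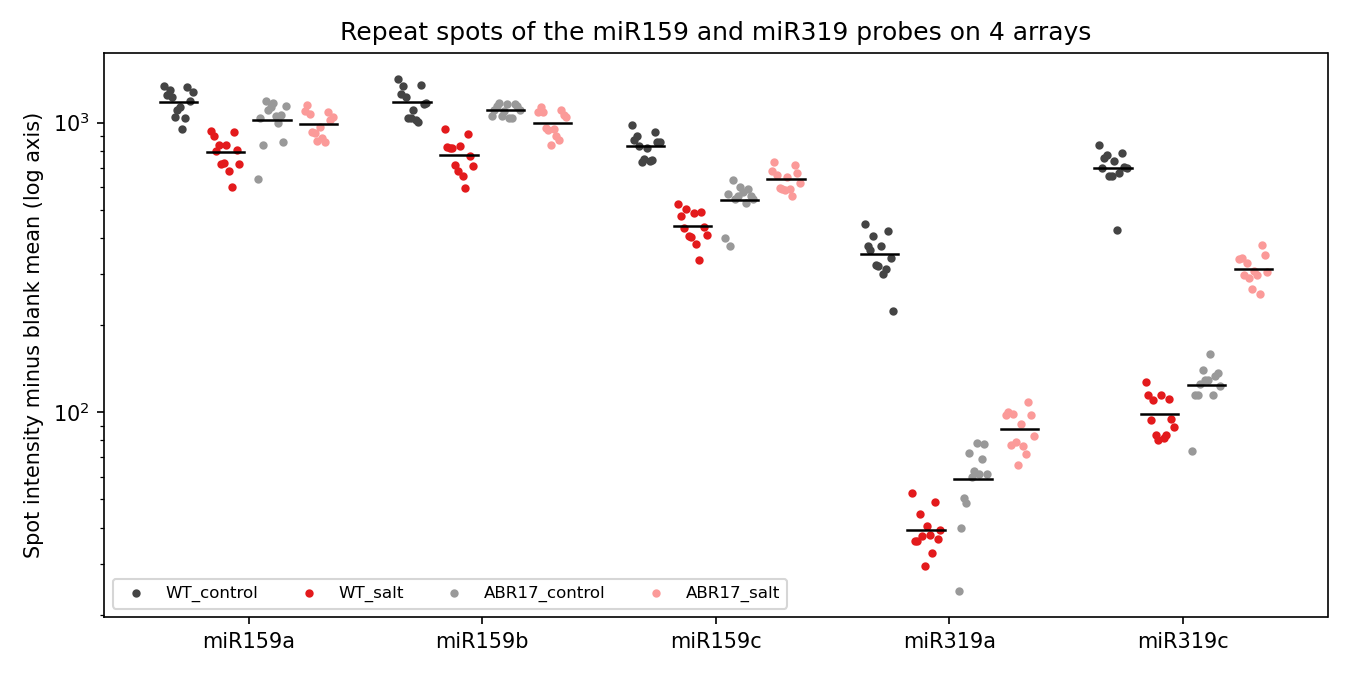
Intensity of each of the 12 repeat spots minus the blank mean of its array, on a log axis, for the 5 probes on the 4 arrays, with black bars for the mean of the spots. The miR159 probes lie within 1.89-fold of WT_control in their means on each of the other arrays, whereas miR319c averages 699 on WT_control against 98.8 on WT_salt, and miR319a 351 against 39.3.

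Differences between arrays are given on the log2 scale after normexp background correction with an offset of 50 and quantile normalisation over the 213 miRNAs. The offset draws dim probes together, and quantile normalisation gives probes of equal rank an equal value, so a difference of 0.00 reflects equal rank and does not show equal amounts. To be counted, a miRNA had to differ by at least 1 on this scale (2-fold) with no overlap of its repeat spots between the arrays.

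The effect of salt on wild-type seedlings was read from WT_salt against WT_control. After normalisation, both miR319 probes were lower with salt and the miR159 probes were near level, which reflects near-equal rank. The normalised log2 level of miR319c was 8.00 with salt against 8.61 without (−0.61 ± 0.07, SE of spots, 1.53-fold lower). For miR319a the levels were 7.00 and 7.55, a difference of −0.55 ± 0.07. The spots of both overlapped after normalisation and none of the 5 probes was counted, where 5 of 58 detected miRNAs (8.62%) were. Those of miR159a, miR159b and miR159c differed by 0.06 ± 0.07, 0.03 ± 0.07 and 0.00 ± 0.06. Direction held under 13 of 13 alternatives for both miR319 probes, but their size did not. Among the 13, quantile normalisation over detected miRNAs and detection at 6 blank SD returned the main values. For miR319c it ran from −0.54 without background correction to −2.51 with scaling on the 5S rRNA probes, with −1.12 under cyclic loess, −1.60 with the 75th percentile and −1.04 in the authors' deposited values, where miR319a differed by −1.23. The miR159 probes turned with the scaling. For miR159a the difference was −0.58 unscaled, 0.11 with the 75th percentile and 1.16 with median scaling. PUC2MM, a calibration probe, was lower on WT_salt as well (1759 against 11190 above blank), and its part in these differences was not tested.

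The genotypes without salt were compared as ABR17_control against WT_control. miR319c was again lower, and miR159b was the probe with the highest difference. The level of miR319c was 7.90 on ABR17_control and 8.61 on WT_control (−0.71 ± 0.08, SE of spots, 1.64-fold lower), with overlapping spots. miR319a differed by −0.09 ± 0.08 here, although its unscaled spots averaged 58.8 above blank against 351 and did not overlap. No member was counted, with a background of 4 of 39 miRNAs (10.3%). miR159b differed by 0.23 ± 0.05, miR159a by 0.06 ± 0.08 and miR159c by 0.00 ± 0.07. Under the 13 alternatives miR319c ranged from −0.60 to −1.99 with no change of sign. Among the 12 that gave a value for miR319a it ranged from −0.07 to −1.72, also below 0 throughout. The positive difference of miR159b turned to −0.09 without scaling. PUC2MM, at 1065 above blank here, was lower than on WT_control too.

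The same question in the ABR17 seedlings was put to ABR17_salt and ABR17_control, a pair without WT_control. miR319c was the member that stood out, and it was higher with salt. Its level was 8.61 on ABR17_salt and 7.90 on ABR17_control (0.71 ± 0.06, SE of spots, 1.64-fold higher), and its spots did not overlap, but the size fell short of the rule. The sister probe miR319a gave 0.00 ± 0.07, a tie at rank values, and −0.38 to 0.18 under the alternatives. Differences of the miR159 probes were −0.09 ± 0.08 for miR159a, −0.20 ± 0.04 for miR159b and 0.14 ± 0.07 for miR159c. None was counted, against 1 of 59 miRNAs (1.69%). miR319c stayed positive under all 13 alternatives, from 0.36 with 5S rRNA scaling to 0.99 in the authors' deposited values, and quantile normalisation over 3 arrays without WT_control gave 0.82. PUC2MM was higher on ABR17_salt too (3933 against 1065 above blank), and its part was not tested.

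The genotypes under salt were compared as ABR17_salt against WT_salt. Both miR319 probes were higher in the transgenic with spots that did not overlap. miR319c had levels of 8.61 and 8.00 (0.61 ± 0.06, SE of spots), and miR319a of 7.46 and 7.00 (0.46 ± 0.05). No member and no miRNA at all was counted here (0 of 62, 0%). miR159a, miR159b and miR159c differed by −0.09 ± 0.07, 0.00 ± 0.07 and 0.14 ± 0.06, with overlapping spots. For miR319c the difference was positive under all 13 alternatives (0.50 to 1.23) and was 0.73 over 3 arrays without WT_control. That of miR319a turned to −0.16 with median scaling. PUC2MM read 3933 above blank on ABR17_salt and 1759 on WT_salt.

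**Figure D2:**
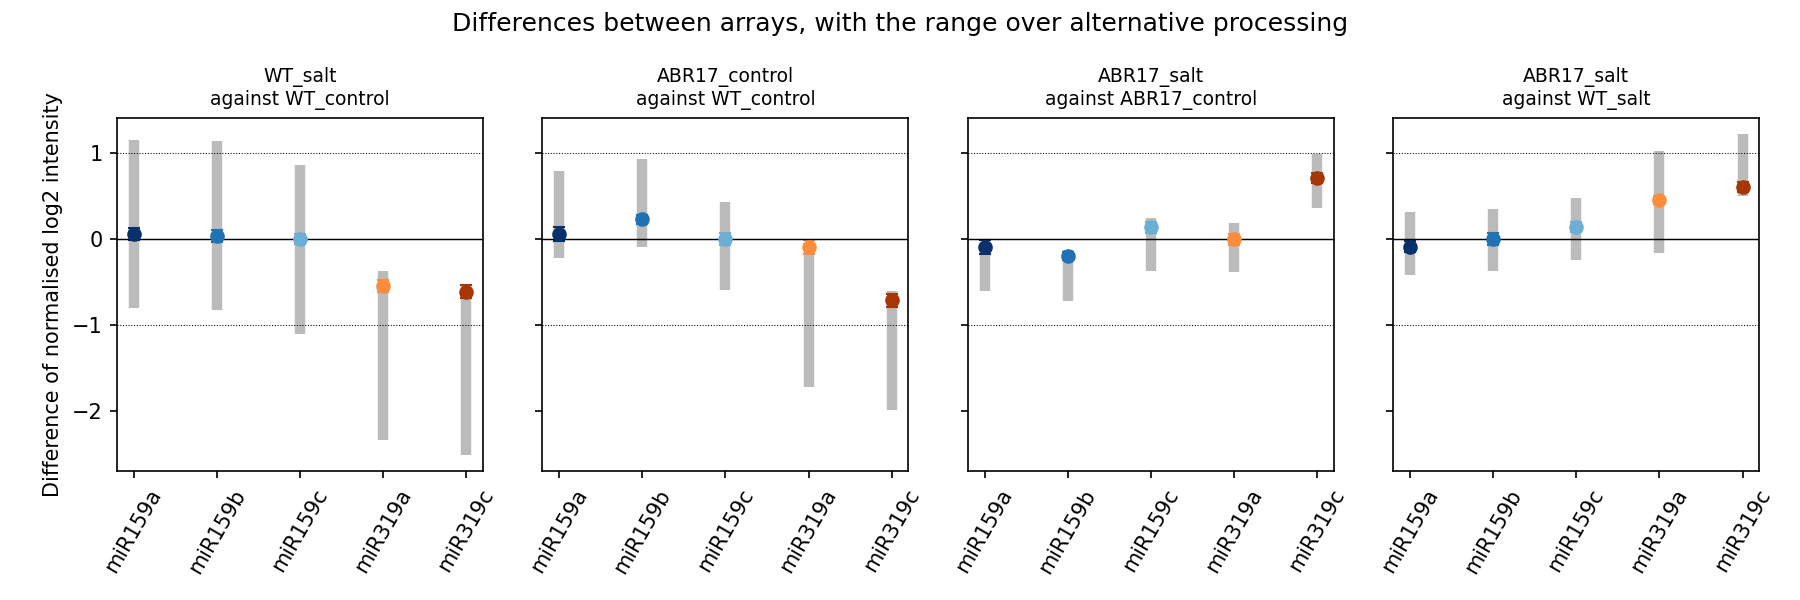
Difference of normalised log2 intensity for each probe in the 4 comparisons, with bars for the SE of 12 repeat spots, grey bands for the range over 13 alternative ways of processing and dotted lines at the 2-fold size. The bands of miR319c stay on the side of its point in every panel (below 0 against WT_control, above 0 in the panels on ABR17_salt), whereas those of miR159a span 0 in 3 of the 4 panels.

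Across the medium, miR319c went in opposite directions in the genotypes. Its salt response was 0.71 in ABR17 and −0.61 in the wild type, a difference of 1.32 ± 0.10 (SE of spots). This was the member counted at a size of at least 1, where 8 of 30 miRNAs detected on all arrays (26.7%) reached it. Among the 30, 1 other miRNA had a larger positive value. miR319a differed by 0.55 ± 0.09, miR159c by 0.14 ± 0.09, miR159a by −0.15 ± 0.10 and miR159b by −0.23 ± 0.08. The value of miR319c lay between 1.14 and 3.21 under the 13 alternatives and was 2.04 in the authors' deposited values. All of these use WT_control, and no version without that array exists.

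The background shares themselves depended on the scaling. The authors' deposited values have no repeat spots, so counts from them use the size alone and a looser rule than the others. In WT_salt against WT_control 2 miRNAs were counted higher and 3 lower, but 0 and 11 with the 75th percentile or calibration scaling, 0 and 17 unscaled, 0 and 24 with 5S rRNA scaling, 2 and 5 with cyclic loess, 14 and 2 with median scaling, 5 and 9 with blank subtraction and 5 and 12 in the authors' deposited values. In ABR17_control against WT_control 2 and 2 became 0 and 9 with the 75th percentile, 0 and 12 unscaled, 0 and 5 with calibration scaling, 0 and 10 with 5S rRNA scaling, 2 and 4 with cyclic loess, 1 and 3 with median scaling, 6 and 4 with blank subtraction and 5 and 10 in the authors' deposited values. For ABR17_salt against ABR17_control, 1 and 0 became 0 and 5 with calibration scaling, 0 and 6 with 5S rRNA scaling, 1 and 1 with the 75th percentile, 2 and 3 with blank subtraction and 12 and 4 in the authors' deposited values. For ABR17_salt against WT_salt, 0 and 0 became 3 and 0 unscaled, 2 and 0 with 5S rRNA scaling, 4 and 2 with blank subtraction and 7 and 0 in the authors' deposited values. The 3 higher and 5 lower differences of salt responses became 15 and 0 unscaled, 7 and 0 with the 75th percentile, 5 and 0 with calibration scaling, 10 and 0 with 5S rRNA scaling, 3 and 3 with cyclic loess, 3 and 13 with median scaling, and 6 and 5 in the authors' deposited values.

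Ratios of probes on the same array do not depend on how arrays are scaled to each other, so the families were also set against miR159a within each array. A ratio depends on the probes themselves, and only its difference between arrays is read. After subtraction of the blank mean, miR319c stood at 59.0 ± 5.51% of miR159a on WT_control, 12.5 ± 0.94% on WT_salt, 12.3 ± 1.75% on ABR17_control, then 31.6 ± 2.44% on ABR17_salt (mean and SD of 12 spot pairs). For miR319a the ratio was 29.8 ± 4.26%, 4.99 ± 0.58%, 5.78 ± 1.53% and 8.80 ± 0.99% in the same order. The lowest spot pair on WT_control, 44.9% for miR319c and 17.5% for miR319a, lay above the highest on any other array (35.2% and 10.6%). Thus, after blank subtraction, miR319 and miR159 differed unequally between WT_control and each of the other arrays. In the authors' deposited values miR319c stood at 37.7, 14.5, 16.0 and 35.1% of miR159a in the same order. WT_control and ABR17_salt were thus close for miR319c in those values. For miR319a the deposited ratios were 17.1, 5.77, 8.86 and 10.1%.

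Within the miR159 family the ratios were steadier. miR159b was at 99.6 ± 4.72%, 98.0 ± 3.27%, 112 ± 21.9% and 101 ± 2.08% of miR159a, where the wide spread on ABR17_control came with a low spot of miR159a (749 against a mean of 1131). miR159c was at 70.6 ± 3.00%, 55.9 ± 2.04%, 53.4 ± 5.79% and 64.4 ± 2.54%, highest on WT_control and next on ABR17_salt, the order also seen for miR319c. In the authors' deposited values the miR159c ratio was 56.9, 62.8, 54.2 and 70.4%, highest on ABR17_salt, so that order did not hold there. The calibration probe PUC2MM was at 55.4% of PUC2PM on WT_control, 18.4% on WT_salt, 12.7% on ABR17_control, then 36.6% on ABR17_salt. It too was highest on WT_control and next on ABR17_salt, as was miR319c over miR159a after blank subtraction. The lower places are not set apart for miR319c. On WT_salt and ABR17_control it was at 12.5 and 12.3% of miR159a, and at 22.4 and 23.0% of miR159c. The sources used here do not describe these calibration probes, and their part in the ratios was not tested.

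**Figure D3:**
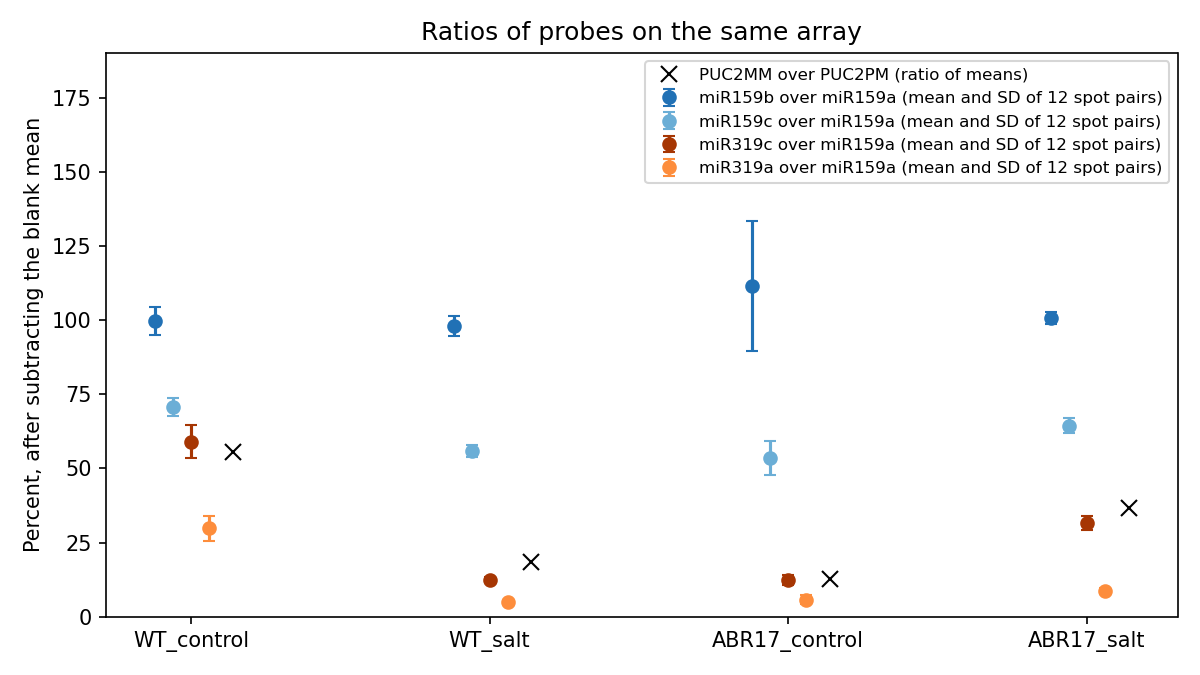
Ratio in percent of each probe to miR159a on the same array after subtraction of the blank mean, as the mean and SD of 12 spot pairs, with crosses for the calibration probe PUC2MM over PUC2PM as a ratio of means. miR319c over miR159a runs 59.0, 12.5, 12.3 and 31.6% from left to right and the calibration ratio 55.4, 18.4, 12.7 and 36.6%, while miR159b stays between 98.0 and 112%.

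On the scale of the main processing without scaling between arrays, the log2 ratio of miR319c to miR159a differed by −1.71 ± 0.04 (SE of spots) between WT_salt and WT_control and by −1.76 ± 0.06 between ABR17_control and WT_control. Between ABR17_salt and ABR17_control the difference was 0.97 ± 0.06, and between ABR17_salt and WT_salt 0.92 ± 0.04. The ratio of miR319a to miR159a differed by −1.53 ± 0.07 and −1.50 ± 0.08 against WT_control, and by 0.23 ± 0.07 and 0.26 ± 0.05 in the other pairs. For this dim probe the sizes depended on the background: with the blank mean subtracted they were −2.57, −2.39, 0.64 and 0.82 in the same order, and in the authors' deposited values −1.56, −0.95, 0.19 and 0.81. The miR319 probes did not keep step with each other either. miR319a stood at 50.7 ± 8.51% of miR319c on WT_control, 40.0 ± 4.37% on WT_salt, 46.6 ± 7.50% on ABR17_control, then 27.8 ± 1.67% on ABR17_salt, lowest on ABR17_salt.

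Other related pairs of probes differed less than the pairs of miR319 with miR159. Among the 10 pairs within the 5 probes, the ratio of the dimmer to the brighter was highest on WT_control in 9, whereas this held for 7 of 13 pairs of other related miRNAs (up to 3 mismatches over at least 18 aligned bases) and 217 of 412 remaining pairs of the 30. For the pairs of miR319 with miR159, WT_control exceeded the next array by 1.71 to 3.41 times after subtraction of the blank mean. In the other related pairs the same quotient ran from 0.84 to 1.15. The pairs within miR159 or within miR319 lay inside that range, at 0.98 to 1.11. No quotient is given for the remaining pairs, but large differences against WT_control were not limited to miR319. Without scaling, miR5021 differed by −2.54 on WT_salt and −2.43 on ABR17_control, and miR824 by −2.18 and −2.34. For miR319c these values were −2.29 and −1.99, and the medians of the 30 were −0.89 and −0.54. The 10 pairs share probes and are not independent, and the pairs and limits were chosen after the values were seen.

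**Figure D4:**
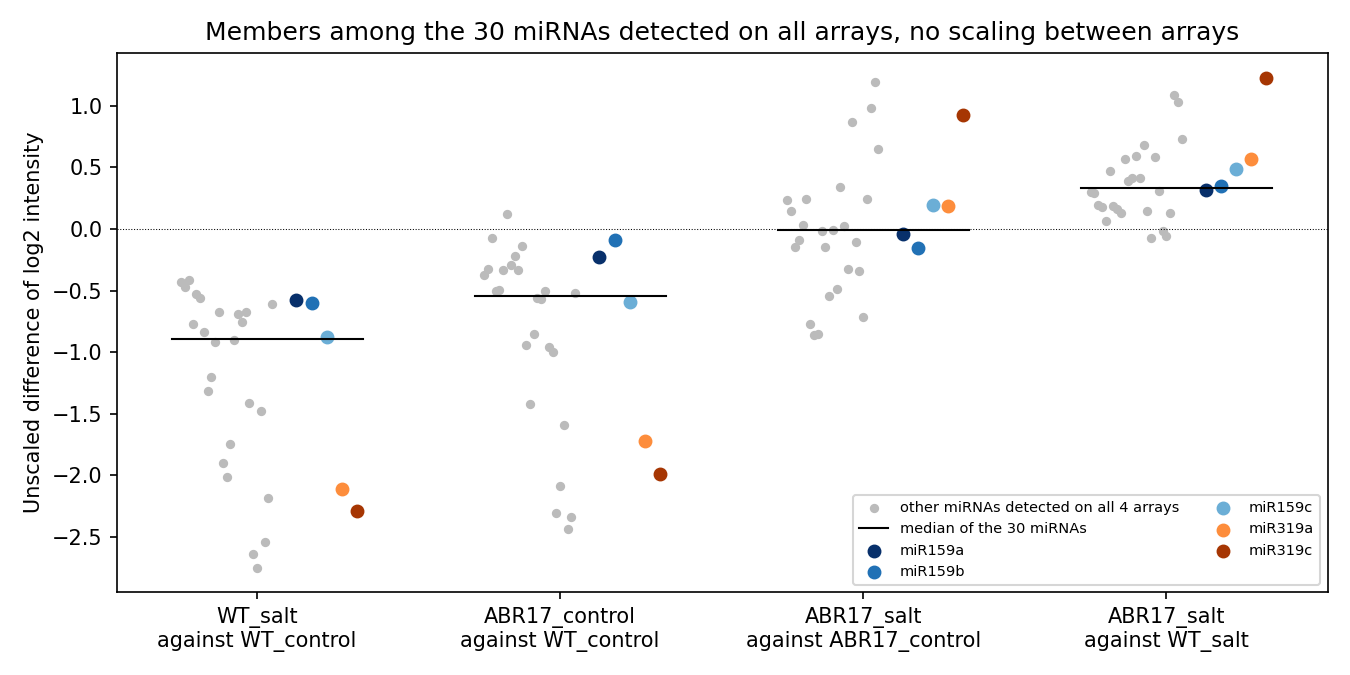
Difference of log2 intensity without scaling between arrays for the 30 miRNAs detected on all 4 arrays, with the 5 probes in colour, the others in grey and a black line at the median. miR319c (−2.29) and miR319a (−2.11) lie below the median of −0.89 in the panel of WT_salt against WT_control and miR159a (−0.58) above it, and miR319c (1.23) is the highest point in that of ABR17_salt against WT_salt.

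Set among all 30 without scaling, miR319a and miR319c lay below the common shift against WT_control and miR159a and miR159b above it, with miR159c near the median. In WT_salt against WT_control the median difference was −0.89, with miR159a at −0.58, miR159b at −0.60 and miR159c at −0.87. miR319a was at −2.11 and miR319c at −2.29, with 5 and 3 miRNAs more negative. In ABR17_control against WT_control the median was −0.54, miR159a, miR159b and miR159c were at −0.22, −0.09 and −0.59, and miR319a and miR319c at −1.72 and −1.99, with 5 and 4 miRNAs more negative. Where ABR17_salt was set against ABR17_control, miR319c at 0.93 was exceeded by 2 of the 30 (median −0.01), and against WT_salt, at 1.23, by none (median 0.33).

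Other families tied to MYB factors or to leaf shape were also on the arrays. The other MYB-targeting miRNAs, miR828 and miR858, were detected on none of the 4 arrays, with spot means of 230 and 237 on WT_control against a blank mean of 231. Of the other families of leaf shape, 6 of 8 probes were detected on all arrays, and both miR396 probes, whose targets are growth-regulating factors, on none. In this list 1 of the 6 was counted in ABR17_control against WT_control, where 10.3% of all miRNAs were: miR164c, a regulator of NAC genes such as CUC2, was higher by 1.05 ± 0.11 after normalisation, although its unscaled spot mean was lower (364 against 525). miR164a differed by 0.89 in that comparison (−0.29 without scaling) and by −0.66 between ABR17_salt and ABR17_control (−0.86 without scaling). In WT_salt against WT_control, miR164c differed by 0.70 and miR390a, which starts tasiRNA production from TAS3, by 0.68 after normalisation. Without scaling both were lower with salt, by −1.20 and −1.41, where the median of the 30 was −0.89. None of the list was counted in the other 3 comparisons. The medians of the list were 0.35, 0.23, −0.05 and −0.16 in the order of the comparisons above, those of the 5 probes 0.00, 0.00, 0.00 and 0.14, and those of all miRNAs detected on both arrays 0.00, 0.00, 0.00 and −0.06.

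Likeness of pattern was taken as the root mean square difference of centred normalised log2 levels over the 4 arrays, among 25 other miRNAs. Closest to miR319c was miR824, which targets AGAMOUS-LIKE16, at 0.19, with levels of 7.93 on WT_control, 7.69 on WT_salt, 7.37 on ABR17_control, then 8.42 on ABR17_salt. Next came miR168a at 0.30, and the median over the 25 was 0.47. miR319a was closest to miR165a (0.09) and miR168a (0.12). Without scaling, miR319a and miR165a were less alike. On WT_salt and ABR17_control, each against WT_control, miR319a differed by −2.11 and −1.72 and miR165a by −0.92 and −0.33. In these comparisons miR319c differed by −2.29 and −1.99, miR824 by −2.18 and −2.34 and miR168a by −0.90 and −0.56. The miR159 probes lay closest to miRNAs that quantile normalisation holds at a constant value, miR166a and miR854a (0.04 for miR159a, 0.06 for miR159c), and miR159b to miR167d (0.07) and miR166a (0.09). Without scaling, miR167d differed by −1.75 on WT_salt and −0.85 on ABR17_control against WT_control, and miR159b by −0.60 and −0.09. With 4 arrays these likenesses are descriptions of the level only.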

How the data were processed

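Single-colour Cy3 arrays were used, 1 per group, and groups were taken from the labels. Per the file headers, the authors deposited the mean density of each spot, a linear intensity. Whether a background had been taken off is unstated. The authors also deposited 1 processed intensity per miRNA and array, with correction and scaling unstated. Scanner and image software are unstated too, as is how the 3 biological replicates of the design text relate to the 4 arrays. Per the labels' protocols, RNA was enriched for small RNA and an adapter ligated to its 3′ ends was stained.

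Spots were corrected by normexp in limma 3.58.1 (R 4.3.3), with an offset of 50, over all 3968 spots of an array. They were then put on the log2 scale, averaged over repeats and quantile normalised over 213 miRNAs. Of the spots, 1120 were blank. Where a miRNA was detected on 1 array of a pair, its difference entered the background counts as a bound. No test between groups was made, and precision is limited by having 1 array each. In a test on simulated data, some known changes were not counted after quantile normalisation. The unscaled differences there, after blank subtraction, came close to the known ones. The simulated arrays compared shared a scale and a background, unlike the real ones, so this does not bear on the unscaled values given here. The members, lists and rules for named miRNAs (the 5 probes, and for each the 2 miRNAs nearest in pattern) were chosen with earlier results of these data known. The 13 alternatives covered background, offset, scaling, repeat summary, detection and the deposited values. Normalisation without WT_control was added after the data were seen.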

Additional observations from a re-analysis of the deposited data

Results flagged for a closer look

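The salt responses of miR319c had opposite signs in the genotypes, −0.61 on the log2 scale in the wild type and 0.71 in ABR17. Neither was counted, and the repeat spots of the wild-type arrays overlapped. Their difference was 1.32, and 8 of 30 miRNAs (26.7%) differed by at least 1. This difference rests on WT_control, and with 1 array per group it was not tested.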

How the results depend on the processing

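Among results that were not 0.00, which have a sign to turn, 0 of 67 values under the alternatives turned for miR319c, 1 of 51 for miR319a, 8 of 67 for miR159a, 6 of 53 for miR159b and 6 of 41 for miR159c. These tallies include quantile normalisation over detected miRNAs and the stricter detection, which returned the main value wherever they gave one. The results at 0.00 took both signs: miR319a in ABR17_salt against ABR17_control (−0.38 to 0.18), miR159b in ABR17_salt against WT_salt (−0.37 to 0.35), and miR159c in WT_salt (−1.10 to 0.86) and ABR17_control (−0.59 to 0.43) against WT_control. Counts of members moved as follows, with the share of all detected miRNAs counted in brackets. For pairs of arrays, counts from the deposited values use the size alone, without the rule on spot overlap. In WT_salt against WT_control 0 became 1 with subtraction of the blank mean (24.1%) and cyclic loess (12.1%), 2 with no normalisation (29.3%), the 75th percentile (19%), median scaling (27.6%), calibration scaling (19%) and the authors' deposited values (29.3%), and 3 with 5S rRNA scaling (41.4%). All were lower miR319 probes, except miR159a and miR159b (higher, median scaling) and miR159c (lower, 5S rRNA scaling). Median scaling left the median of the 30 at 0.85. In ABR17_control against WT_control 0 became 1 with subtraction of the blank mean (25.6%), cyclic loess (15.4%) and calibration scaling (12.8%), and 2 with no normalisation (30.8%), the 75th percentile (23.1%) and 5S rRNA scaling (25.6%). In ABR17_salt against WT_salt 0 became 1 with subtraction of the blank mean (9.68%), no normalisation (4.84%), 5S rRNA scaling (3.23%) and the authors' deposited values (11.3%). For the difference of salt responses 1 became 2 with subtraction of the blank mean (33.3%), the 75th percentile (23.3%), calibration scaling (16.7%), 5S rRNA scaling (33.3%) and the authors' deposited values (36.7%), and 3 with no normalisation (50%) and median scaling (53.3%). The log2 ratio of miR319c to miR159a, at −1.71 for WT_salt against WT_control, was −2.24 with subtraction of the blank mean, −1.97 with normexp offset 16 and −1.38 in the authors' deposited values. At −1.76 for ABR17_control against WT_control, it was −2.27 with subtraction of the blank mean and −1.23 in the authors' deposited values. For ABR17_salt against ABR17_control it was 1.37 with subtraction of the blank mean in place of 0.97. For ABR17_salt against WT_salt it was 1.34 with subtraction of the blank mean, 1.11 with normexp offset 16 and 1.27 in the authors' deposited values in place of 0.92. The cause of these moves was not tested. No paired analysis was possible because each group has 1 array.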

Other observations

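Further calibration probes carry names ending in 3P, 3M05 and 3M10, and 10 of their sets had a 3P probe above the detection threshold on every array. The 3M05 probe, as a percentage of its 3P partner after subtraction of the blank mean, had medians of 1.74 and 2.37 on the wild-type arrays (WT_control, WT_salt) and of −2.42 and 0.53 on those of ABR17 (ABR17_control, ABR17_salt). For 3M10 the medians in this order were 0.44, 2.06, −2.26 and 0.22. The order of these medians over the arrays was not that of PUC2MM over PUC2PM. Many 3M probes read near the blank mean, so the medians say little of the order. The 3M05 ratio was highest on WT_control in 6 of the 10 sets and on WT_salt in 4, the 3M10 ratio in 4 and 6. The brightest of these probes, Ctr03-3M05 (381 above blank on WT_control), ran 26.1, 1.71, −0.75 and 2.40%, the order of PUC2MM over PUC2PM. Ctr03-3M10 ran 8.23, 1.29, −0.93 and −0.03%, which is another order.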
